A study of Arabidopsis thaliana with 6 samples.

Results

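The WRKY family of transcription factors was followed in the inflorescences of *Arabidopsis thaliana* through 52 of its genes, which were chosen by locus identifier. Of the 52 genes, 46 had values among the 21799 genes with values, and 43 passed the filter on low values and were tested among 21287 genes. *WRKY62* (AT5G01900), *WRKY55* (AT2G40740), *WRKY29* (AT4G23550), *WRKY10* (AT1G55600), *WRKY8* (AT5G46350) and *WRKY71* (AT1G29860) had no values and were not analysed here. *WRKY38*, *WRKY75* and *WRKY51* had values but stayed under the filter.

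The RNA came from plants that combine the mutations *bee1*, *bee3*, *stk* and *ces-4*, called the mutant or quadruple mutant, and from wild-type plants, both in the Col-0 background, and each genotype was represented by 3 biological replicates, every one of them a pool of 5 plants. Whole inflorescences till stage 12 of pistil development, before fertilization, were used. The mutant lacks the MADS-domain factor SEEDSTICK (STK) and the bHLH factors CESTA (CES), BEE1 and BEE3, and the comparison asks which genes depend on them at the time when the transmitting tract, the tissue that guides pollen tubes through the pistil, is complete. All 4 mutations are present in every cell of the plant, and the tissue of interest is a small part of an inflorescence, so fewer cells of a type and less RNA per cell cannot be told apart in these samples.

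WRKY proteins bind DNA through the domain that gives them their name, and the sequence they recognise is the W-box, with the core TTGAC. They are best known in leaves, where pathogens, wounding, touch and salicylic acid switch many of them on within minutes to hours, often through MAP kinase cascades. The family is divided by domain structure: group I proteins carry a pair of WRKY domains, group II proteins carry a single one and fall into subgroups IIa to IIe, and group III proteins differ in the zinc finger. Other members act in development, in pollen, trichomes, the seed coat and the endosperm. Many WRKY promoters hold W-boxes themselves, and members are known to regulate one another.

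W-boxes were counted in the 300 bases before the annotated start of each gene, as TTGACC or TTGACT on either strand, on the TAIR10.1 assembly of RefSeq. At least 1 W-box was present before 21 of the 52 genes (40.4%), against 32.3% of 27443 protein-coding genes, and 2 or more were present before 9 (17.3%), against 7.91%. The 5 promoters printed here belong to the member that passed the test (*WRKY54*), to the member with the most negative fold change (*WRKY30*), to a member that was high in a single wild-type sample (*WRKY33*), and to the closely related pair *WRKY53* and *WRKY41*, whose fold changes had opposite signs. Each reads 5′ to 3′ toward the gene start, and the capitals mark the W-boxes. The positions are chr2:17002529-17002828 (minus strand) for *WRKY54*, chr5:8154711-8155010 (minus strand) for *WRKY30*, chr2:16107935-16108234 (plus strand) for *WRKY33*, chr4:12393983-12394282 (minus strand) for *WRKY53* and chr4:6758798-6759097 (plus strand) for *WRKY41*.
WRKY54: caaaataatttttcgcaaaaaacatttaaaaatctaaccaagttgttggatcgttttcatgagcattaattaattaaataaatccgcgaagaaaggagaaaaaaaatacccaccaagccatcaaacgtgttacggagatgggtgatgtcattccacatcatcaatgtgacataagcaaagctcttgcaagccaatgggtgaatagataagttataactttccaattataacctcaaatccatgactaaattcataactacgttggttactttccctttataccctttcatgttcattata
WRKY30: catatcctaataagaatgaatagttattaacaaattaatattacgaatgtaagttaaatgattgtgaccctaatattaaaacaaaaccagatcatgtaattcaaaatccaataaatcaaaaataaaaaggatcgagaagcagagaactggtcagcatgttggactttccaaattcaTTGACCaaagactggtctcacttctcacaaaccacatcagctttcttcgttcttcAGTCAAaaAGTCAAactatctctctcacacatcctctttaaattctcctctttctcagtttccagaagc
WRKY33: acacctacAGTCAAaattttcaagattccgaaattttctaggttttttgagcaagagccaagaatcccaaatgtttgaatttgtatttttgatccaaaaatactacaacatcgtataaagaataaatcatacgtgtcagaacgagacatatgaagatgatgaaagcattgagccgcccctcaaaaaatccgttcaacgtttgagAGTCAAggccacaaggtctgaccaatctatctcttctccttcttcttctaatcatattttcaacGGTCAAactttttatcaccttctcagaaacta
WRKY53: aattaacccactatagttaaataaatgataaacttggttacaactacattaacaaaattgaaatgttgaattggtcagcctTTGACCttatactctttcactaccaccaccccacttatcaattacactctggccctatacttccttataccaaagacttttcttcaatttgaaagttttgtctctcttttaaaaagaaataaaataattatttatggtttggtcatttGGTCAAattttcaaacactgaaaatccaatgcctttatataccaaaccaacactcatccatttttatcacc
WRKY41: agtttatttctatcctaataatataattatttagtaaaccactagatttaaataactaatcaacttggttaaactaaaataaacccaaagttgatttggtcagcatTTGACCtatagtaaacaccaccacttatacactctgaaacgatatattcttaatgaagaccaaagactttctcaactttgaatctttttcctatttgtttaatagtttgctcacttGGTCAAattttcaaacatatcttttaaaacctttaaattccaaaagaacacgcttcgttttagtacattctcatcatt

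The *WRKY54* promoter held no W-box, while those of *WRKY30* and *WRKY33* held 3 each. In *WRKY30* the boxes began at positions -124, -69 and -61 from the gene start, and in *WRKY33* at -292, -96 and -32. *WRKY53* and *WRKY41* held 2 boxes each, at -219 and -71 in *WRKY53* and at -194 and -78 in *WRKY41*, and the second box lay within a run of 19 bases, ttGGTCAAattttcaaaca, that both promoters share. No W-box was present before *WRKY18*, *WRKY40*, *WRKY46*, *WRKY60* or *WRKY70*. The core TTGAC alone, on either strand, was found at 2 places before *WRKY40* and at 1 each before *WRKY46* and *WRKY70*, but not before *WRKY18* or *WRKY60*. At least 1 core was present before 32 of the 52 genes (61.5%), against 50.4% of protein-coding genes. The G-box CACGTG, the element bound by many bHLH factors, was found before 5 of the 52 genes (9.62%), against 7.09% of protein-coding genes, and the CArG box, the element of MADS-domain factors, before 0 of 52, against 2.92%. Both were searched on either strand in the same windows, of which those of *WRKY25*, *WRKY26* and *WRKY7* reach into a neighbouring gene. Among the genes that changed in the mutant and had a promoter in the annotation, 39 of 115 that fell held a W-box (33.9%) and 4 of 24 that rose did (16.7%), beside 31.4% of all 20610 protein-coding genes tested.

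The libraries held between 15.9 and 21.2 M reads on the listed genes, and 3 reads corresponded to 0.138 to 0.185 CPM, the unit of the values here, which scales read counts to library size. The 4 mutated genes fell in the mutant, with adjusted p-values between 3.98e-07 and 0.000556. *STK* measured 10.4, 10.5 and 9.72 CPM in the mutant, against 50.3, 54.3 and 49.7 CPM in the wild type, and the log2 fold changes of *CES*, *BEE1* and *BEE3* were -4.03, -1.81 and -2.90. Floral organ identity genes marked the tissue in every sample, with summed levels of 747 to 809 CPM in the mutant and 667 to 758 CPM in the wild type, and none of the 6 was called. Wild-type replicate 2 stood apart: the summed level of 15 rapidly inducible stress and touch genes was 1242 CPM in it, against 501 and 513 CPM in the other wild-type samples, and 547, 508 and 755 CPM in the mutant samples. The summed level of 12 mature pollen genes was lowest in it, at 2516 CPM, against 3269 and 3539 CPM in the other wild-type samples. In the mutant samples that sum was 2962, 3369 and 2893 CPM. What set the sample apart was not tested. Results that rest on this sample are therefore given with and without it.

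In the wild type the most abundant WRKY transcripts per kb of transcript were those of *WRKY40*, with 42.1 ± 43.6 CPM per kb, and *WRKY18*, with 41.8 ± 33.0 CPM per kb (SD, n = 3). *WRKY70* followed with 33.6 ± 18.1, *WRKY1* with 33.1 ± 0.722 and *WRKY15* with 32.9 ± 9.84 CPM per kb (SD, n = 3 each). The levels of these 5 genes did not differ beyond their spread, and the 43.6 CPM per kb of spread in *WRKY40* came from wild-type replicate 2. The first places of *WRKY40* and *WRKY18* rest on that sample. *WRKY40* measured 123 CPM in it, against 21.2 and 23.6 CPM in the other wild-type samples, and *WRKY18* 139 CPM, against 38.5 and 40.7 CPM. An order without it was not computed. *WRKY39*, at position 7 of 46, was steadier, with 27.8 ± 1.04 CPM per kb (SD, n = 3). At the other end of the order, *WRKY38*, *WRKY51*, *WRKY65* and *WRKY75* had wild-type means under 0.5 CPM per kb. *WRKY54*, the member that passed the test, ranked at position 25 of 46, with 1.73 CPM per kb in the mutant and 4.33 ± 1.24 CPM per kb in the wild type (SD, n = 3).

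**Figure D1:**
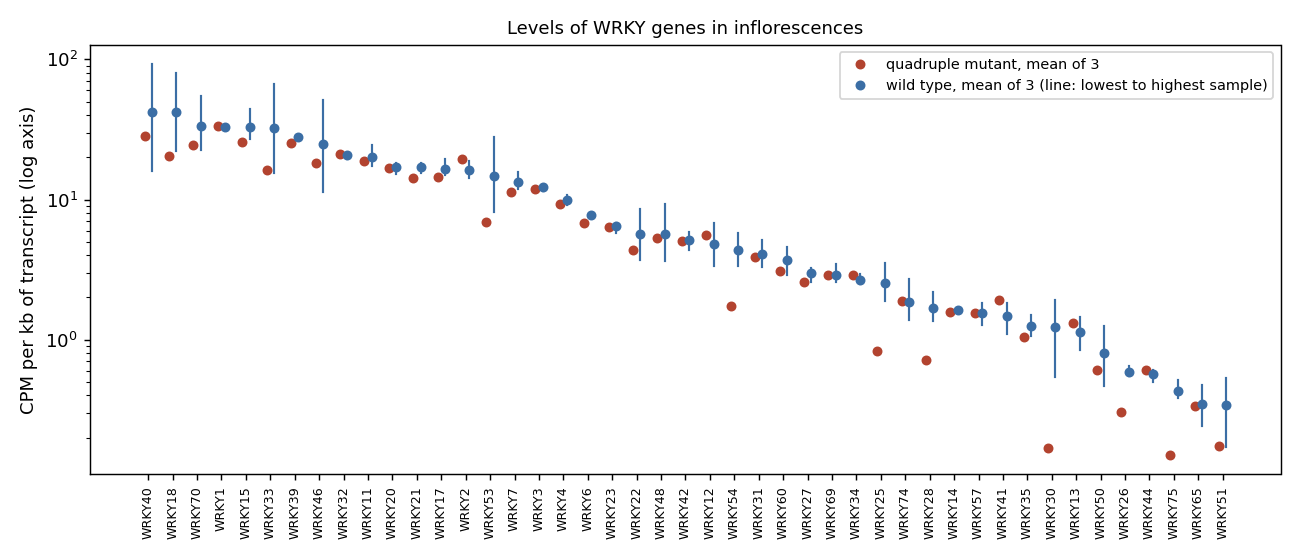
Mean level of 45 WRKY genes in CPM per kb of the longest annotated transcript, on a log axis, in the quadruple mutant (red) and the wild type (blue), ordered by the wild-type mean; lines run from the lowest to the highest wild-type sample. *WRKY38* is left out because it is at 0 in all mutant samples. The longest lines belong to genes that were high in wild-type replicate 2.

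Of the 43 WRKY genes tested, a single one, *WRKY54*, passed the test at an adjusted p under 0.05, and it fell in the mutant. Over all 21287 genes tested, 148 were called (0.695%), 120 of them lower in the mutant (0.564%), so 1 of 43 members (2.33%) is a count of 1 gene. The number of genes called over all genes was 73, 76, 61 and 83 without mutant replicate 1, mutant replicate 2, wild-type replicate 1 and wild-type replicate 3. At an unadjusted p under 0.05 there were 7 of 43 members (16.3%), against 9.31% of all genes, and 6 of the 7 were lower (14.0%), against 5.48% of all genes. The mutant samples all lay below the wild-type samples in 6 members (14.0%), against 7.41% of all genes, and all lay above them in 0 members, against 6.92%. *WRKY30* is in both counts of lower members and passed the filter through its wild-type samples alone. Without wild-type replicate 2, 5 members were lower and 2 higher at an unadjusted p under 0.05, beside 5.28% and 3.49% of all genes. Without it the mutant samples all lay below the wild-type samples in 6 members, beside 12.2% of all genes, and all above them in 4 members, *WRKY40*, *WRKY46*, *WRKY48* and *WRKY13*, beside 11.6% of all genes.

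**Figure D2:**
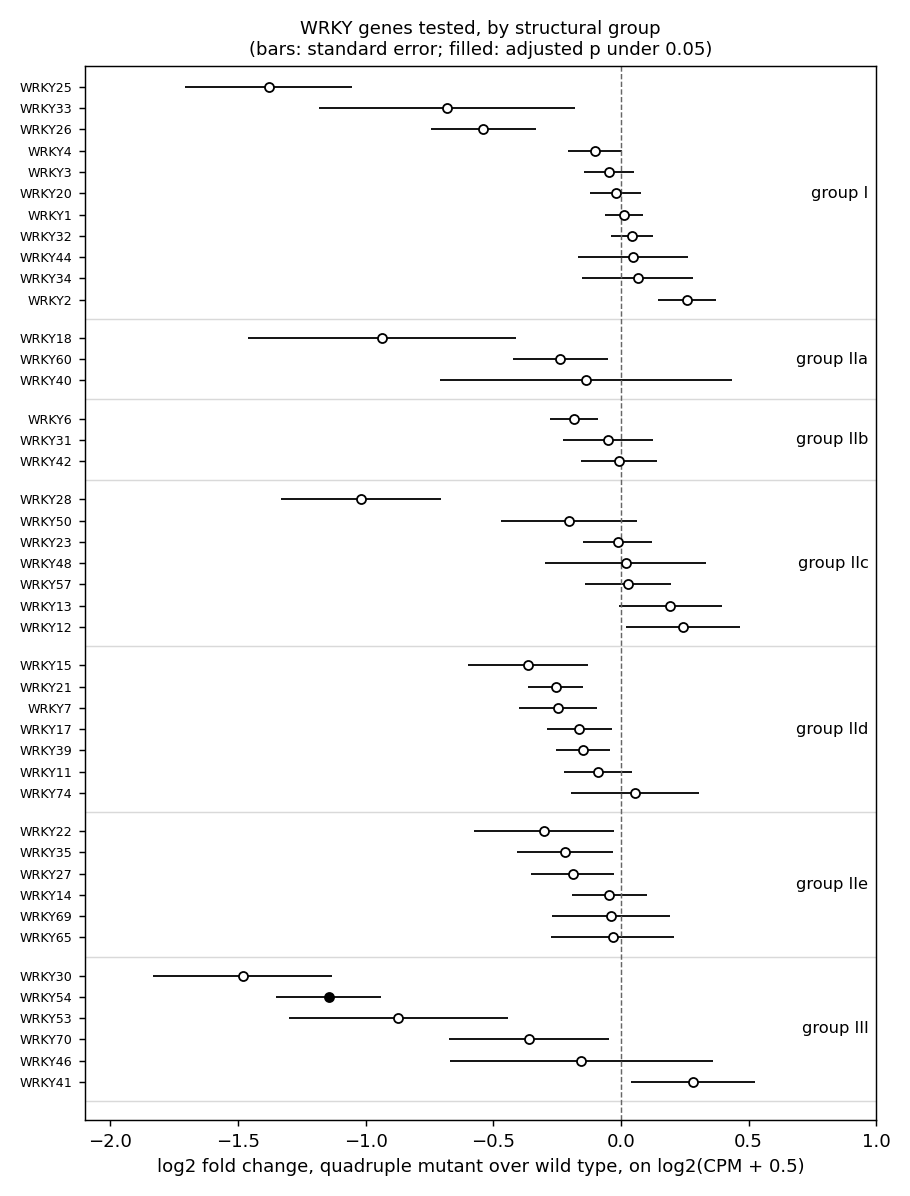
Log2 fold change of the 43 WRKY genes tested, quadruple mutant over wild type on log2(CPM + 0.5), by structural group; points are estimates from 3 samples per genotype, bars their standard errors, and the filled point is the gene with an adjusted p under 0.05. Most points lie within 0.5 of 0, and the most negative ones are *WRKY30* (-1.48), *WRKY25* (-1.38) and *WRKY54* (-1.15).

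The median log2 fold change of the 43 members was -0.14, against 0.01 over all genes tested, and 32 of the 43 were negative, where 47.9% of all genes were. In the fit without a filter, over the 46 members with values, the median was -0.15. Without wild-type replicate 2 the median was -0.04 and 24 of 43 were negative, beside 48.4% of all genes. Most fold changes were small, and 35 of 43 lay within 0.5 of 0 on the log2 scale and 29 within 0.25.

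Group III holds the genes most closely tied to salicylic acid and to senescence, and its 6 tested members had a median log2 fold change of -0.62, with 5 negative. Without wild-type replicate 2 the median was -0.13, with 3 negative. Both medians and both counts include *WRKY30*, which passed the filter through its wild-type samples alone. *WRKY54* (AT2G40750, on chromosome 2), the closest relative of *WRKY70*, encodes a factor that with WRKY70 holds back salicylic acid synthesis and leaf senescence. It measured 2.89, 2.13 and 2.42 CPM in the mutant, against 5.61, 8.20 and 4.79 CPM in the wild type. Every mutant sample lay below every wild-type sample, and the mean in mutant samples was 40.0% of that in wild-type samples. The log2 fold change was -1.15 ± 0.21 (SE) with an adjusted p of 0.0472. The call did not hold when any 1 sample was left out: the adjusted p ranged from 0.0551, without wild-type replicate 2, to 0.201, without mutant replicate 2, while the log2 fold change stayed between -1.30 and -0.94. Without a filter on low values, or with a filter at 1 CPM, the adjusted p was 0.0506 or 0.0511.

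*WRKY70* (AT3G56400), which links salicylic acid and jasmonic acid signaling, showed another pattern. It measured 37.0, 26.3 and 44.9 CPM in the mutant, against 33.3, 80.0 and 34.9 CPM in the wild type. The genotypes overlapped, and the log2 fold change was -0.36 ± 0.31 (SE, adjusted p = 0.809) with all samples and 0.05 without wild-type replicate 2.

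*WRKY30* (AT5G24110), a gene induced early by oxidative stress, had the most negative fold change of the family. It measured 0.138, 0.460 and 0.0504 CPM in the mutant, which are 3, 8 and 1 reads, against 1.56, 2.47 and 0.70 CPM in the wild type, which are 34, 40 and 13 reads. The genotypes did not overlap, and the gene passed the filter through its wild-type samples alone. Its log2 fold change of -1.48 ± 0.35 (SE) did not pass the test (adjusted p = 0.147), and its size depended on the pseudocount, being -2.47 with 0.1 CPM and -1.04 with 1 CPM. The paper, which used an edgeR test, lists both *WRKY30* and *WRKY54* among its genes lower in the mutant.

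*WRKY38* (AT5G22570), a salicylic acid-induced repressor of basal defense, was at 0 CPM in the 3 mutant samples, which allows up to 0.138, 0.173 and 0.151 CPM in them. In the wild type it measured 0.184, 0.432 and 0.0538 CPM, or 4, 7 and 1 reads. It was tested only in the fit without a filter, where its change was -0.50 ± 0.25 on the log2 scale (SE, adjusted p = 0.590).

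*WRKY53* (AT4G23810), a promoter of leaf senescence, measured 9.32, 7.40 and 14.8 CPM in the mutant, against 12.3, 42.3 and 12.8 CPM in the wild type. Mutant replicate 3 lay above 2 of the 3 wild-type samples. Its paralog *WRKY41* (AT4G11070), known for a role in seed dormancy, measured 3.21, 1.90 and 1.71 CPM in the mutant, against 1.79, 1.29 and 2.15 CPM in the wild type, and its log2 fold change of 0.28 ± 0.24 (SE, adjusted p = 0.806) was the most positive of the family. *WRKY46* (AT2G46400), which acts with WRKY53 and WRKY70 in basal resistance, measured 21.0, 16.7 and 36.7 CPM in the mutant, against 15.3, 69.8 and 16.6 CPM in the wild type. All 3 mutant samples of *WRKY46* lay above 2 wild-type samples and below the other one.

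Group I contains *WRKY33* and its relatives *WRKY25* and *WRKY26*, which are known from heat tolerance and from defense downstream of MAP kinases, and several members with developmental roles. Of 11 members tested, 6 were negative and 5 positive, with a median of -0.02. *WRKY25* (AT2G30250) measured 1.65, 0.633 and 2.11 CPM in the mutant, against 3.82, 6.29 and 3.34 CPM in the wild type. The genotypes did not overlap, the mean in the mutant was 32.7% of that in wild type, and the log2 fold change of -1.38 ± 0.33 (SE) had an adjusted p of 0.146. *WRKY26* (AT5G07100) measured 0.596, 0.345 and 0.504 CPM in the mutant, against 0.874, 0.863 and 1.02 CPM in the wild type. These were 6 to 19 reads per sample, and the log2 fold change of -0.54 ± 0.21 (SE) had an adjusted p of 0.439.

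*WRKY33* (AT2G38470), the activator of camalexin synthesis, did not share that separation. It measured 32.7, 22.1 and 44.6 CPM in the mutant, against 31.7, 135 and 31.3 CPM in the wild type. The antisense genes AT2G08965 and AT2G38480 are annotated as overlapping *WRKY33*, and whether strand was used in counting is not given in the sources used here.

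**Figure D3:**
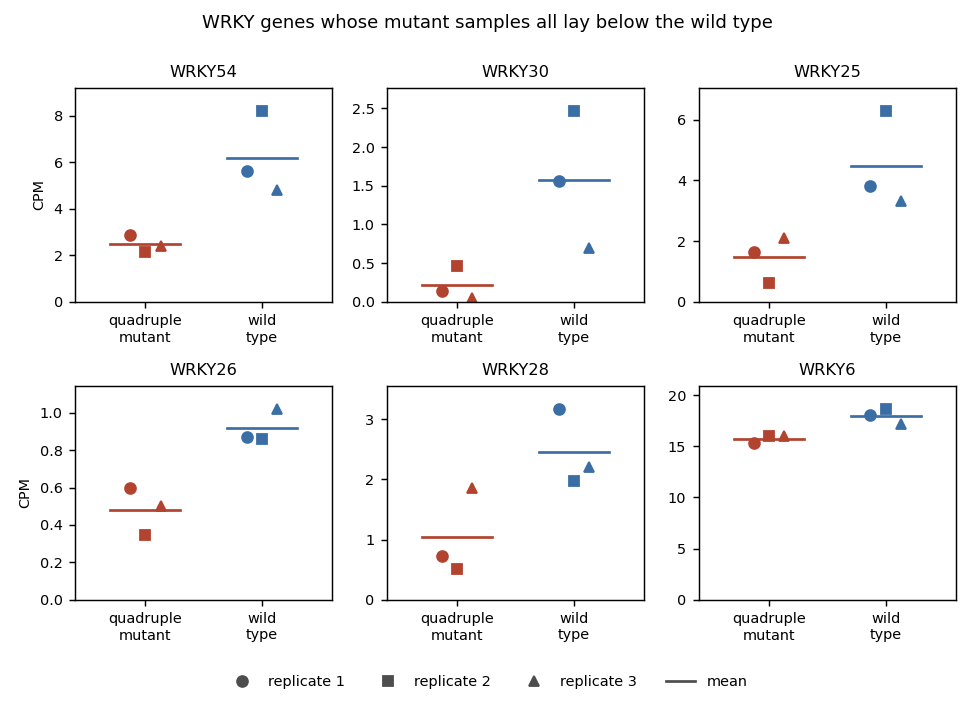
CPM of each sample for the 6 tested WRKY genes whose 3 mutant samples (red, left) all lay below the 3 wild-type samples (blue, right); marker shapes give the replicate number and lines the group means. The groups are far apart in *WRKY54* (2.13 to 2.89 against 4.79 to 8.20 CPM) and close in *WRKY6* (15.3 to 16.0 against 17.2 to 18.7 CPM).

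The developmental members of group I differed little. *WRKY2* (AT5G56270), which acts in the polarity of the zygote and in pollen, measured 53.8, 61.7 and 61.2 CPM in the mutant, against 57.3, 43.3 and 47.4 CPM in the wild type. Its log2 fold change of 0.26 ± 0.11 (SE, adjusted p = 0.530) was the only one with an unadjusted p under 0.05 among the positive members. *WRKY34* (AT4G26440), its partner in the male gametophyte, measured 6.05, 5.58 and 3.17 CPM in the mutant, against 4.28, 4.99 and 4.36 CPM in the wild type. Of 12 mature pollen genes, 11 were tested and none was called. *WRKY44* (AT2G37260), known as *TTG2* from trichomes and the seed coat, measured 1.38, 0.748 and 1.26 CPM in the mutant, against 1.10, 0.925 and 1.13 CPM in the wild type. *WRKY1* (AT2G04880) had the smallest standard error of the 43 members, with 69.7, 65.9 and 67.8 CPM in the mutant, against 68.5, 67.5 and 65.6 CPM in the wild type, and a log2 fold change of 0.01 ± 0.07 (SE).

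Group IIa consists of *WRKY18*, *WRKY40* and *WRKY60*, which interact with one another and act in defense and in abscisic acid responses. *WRKY18* (AT4G31800) measured 26.3, 18.5 and 62.6 CPM in the mutant, against 38.5, 139 and 40.7 CPM in the wild type. *WRKY40* (AT1G80840) measured 33.9, 25.9 and 53.0 CPM in the mutant, against 21.2, 123 and 23.6 CPM in the wild type. In both genes a single wild-type sample, replicate 2, was far above the rest, and in *WRKY40* the other wild-type samples lay below all 3 mutant samples. *WRKY60* (AT2G25000) measured 5.36, 4.03 and 4.33 CPM in the mutant, against 4.28, 6.78 and 5.54 CPM in the wild type. The log2 fold changes were -0.93 ± 0.53 for *WRKY18*, -0.14 ± 0.57 for *WRKY40* and -0.24 ± 0.19 for *WRKY60* (SE), and none passed the test.

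Wild-type replicate 2 was more than 2-fold above both other wild-type samples in 7 of the 43 members (16.3%), against 1.39% of all genes tested. The 7 were *WRKY40*, *WRKY46*, *WRKY33*, *WRKY18*, *WRKY53*, *WRKY48* and *WRKY70*, in which it was 2.35 to 5.46 times the mean of the other wild-type samples. Those other 2 samples were close to each other, with replicate 1 at 0.899 to 1.08 times replicate 3. The mutant samples were also ordered alike in these genes: replicate 3 was highest and replicate 2 lowest in all 7, with replicate 3 at 1.58 to 3.38 times replicate 2. Across the members, wild-type replicate 2 was the highest wild-type sample in 26 of 43 (60.5%), against 36.6% of all genes, and mutant replicate 2 the lowest mutant sample in 29 of 43, against 33.2% of all genes. Mutant replicate 3 was the highest mutant sample in 18 of 43, against 34.8% of all genes. The rapidly inducible stress and touch genes were ordered in part likewise, and 11 of the 15 were more than 2-fold higher in wild-type replicate 2. Among mutant samples, 12 of the 15 were highest in replicate 3 and 9 of the 15 lowest in replicate 2. Their part in the values of the WRKY genes was not tested.

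**Figure D4:**
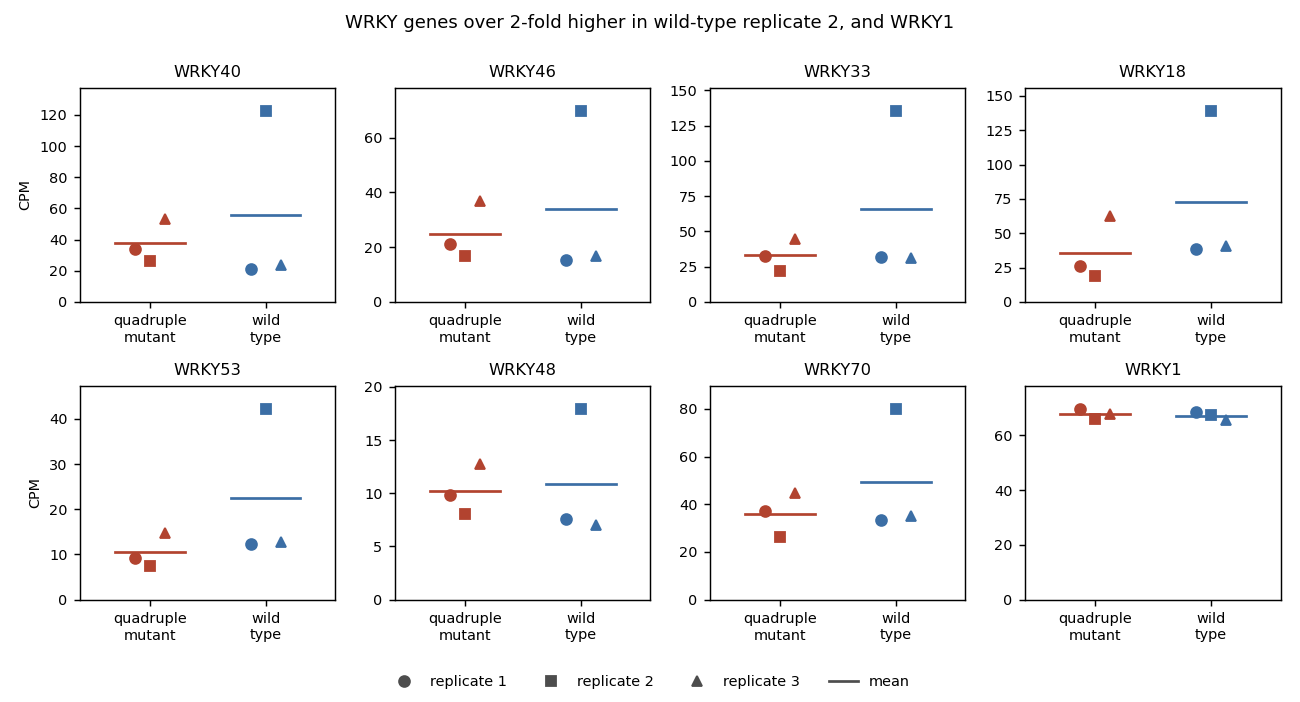
CPM of each sample for the 7 WRKY genes that were more than 2-fold higher in wild-type replicate 2 than in both other wild-type samples, with *WRKY1* for comparison; mutant samples are red and left, wild-type samples blue and right, shapes give the replicate number and lines the group means. The square of wild-type replicate 2 stands alone in all panels but that of *WRKY1*.

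These 7 genes were picked for a high value in wild-type replicate 2, so their fold changes could only move toward positive values without it. *WRKY40* had a log2 fold change of 0.67 (adjusted p = 0.366) and *WRKY46* of 0.54 (adjusted p = 0.604) without it, *WRKY48* of 0.43 (adjusted p = 0.517), *WRKY33* of 0.02, *WRKY18* of -0.34 and *WRKY53* of -0.30. Where the mutant samples all lay below the wild-type samples, leaving out a sample could change the size but not the sign, and the values were -0.94 for *WRKY54*, -1.13 for *WRKY25*, -1.18 for *WRKY30*, -1.13 for *WRKY28*, -0.57 for *WRKY26* and -0.16 for *WRKY6*.

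**Figure D5:**
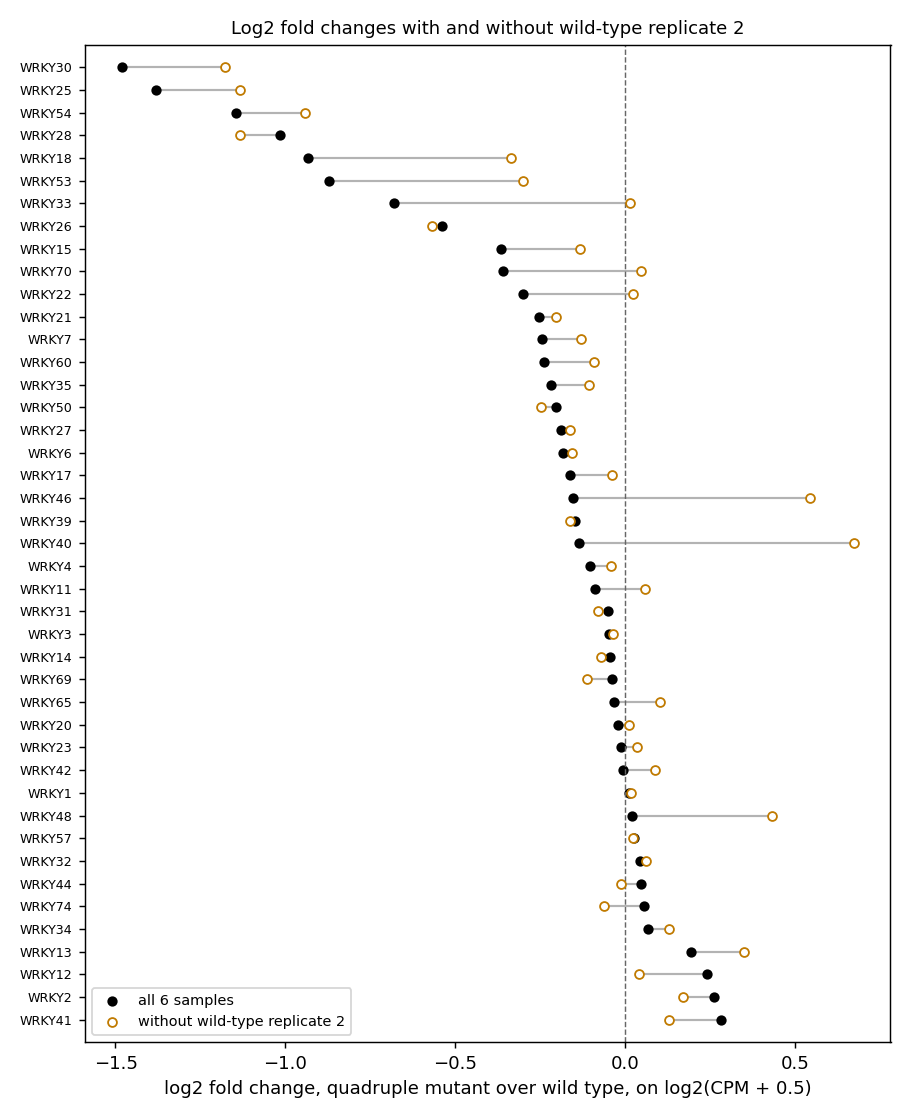
Log2 fold change of the 43 WRKY genes tested, quadruple mutant over wild type on log2(CPM + 0.5), with all 6 samples (filled) and without wild-type replicate 2 (open). *WRKY40* moves from -0.14 with all samples to 0.67 without that sample, while *WRKY28* and *WRKY26* hardly move.

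Group IIc includes genes known from development and from nutrient supply. Of 7 members tested, 3 were negative and 4 positive, with a median of 0.02. *WRKY28* (AT4G18170), an activator of salicylic acid synthesis that is also known from the ovule, measured 0.733, 0.518 and 1.86 CPM in the mutant, against 3.17, 1.97 and 2.21 CPM in the wild type. Mutant replicate 3 came close to the lowest wild-type sample, and the log2 fold change of -1.02 ± 0.31 (SE) had an adjusted p of 0.294. *WRKY23* (AT2G47260), an auxin-responsive gene, measured 14.1, 10.5 and 12.1 CPM in the mutant, against 11.0, 13.1 and 12.7 CPM in the wild type. *WRKY12* (AT2G44745), which acts in secondary walls of the pith, measured 5.87, 6.21 and 5.04 CPM in the mutant, against 6.94, 3.45 and 4.36 CPM in the wild type. *WRKY13* (AT4G39410), known like *WRKY12* from the control of flowering time, measured 1.92, 1.67 and 1.76 CPM in the mutant, against 1.47, 1.97 and 1.13 CPM in the wild type. The genotypes overlapped in all 3 of these genes. *WRKY75*, known from phosphate starvation, measured 0.138, 0.230 and 0 CPM in the mutant, against 0.414, 0.308 and 0.323 CPM in the wild type, and *WRKY51* measured 0.229, 0.115 and 0.151 CPM in the mutant, against 0.506, 0.308 and 0.161 CPM in the wild type. Both stayed under the filter at 0 to 11 reads per sample. In the fit without a filter the log2 fold change was -0.46 ± 0.22 (SE, adjusted p = 0.579) for *WRKY75*, whose genotypes did not overlap, and -0.29 ± 0.23 (SE, adjusted p = 0.775) for *WRKY51*.

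The remaining subgroups held no called member. In group IId, the calmodulin-binding members, 6 of 7 were negative with a median of -0.16, and *WRKY21* (AT2G30590) measured 30.4, 26.7 and 33.3 CPM in the mutant, against 32.8, 38.7 and 36.4 CPM in the wild type. Its log2 fold change was -0.25 ± 0.11 (SE, adjusted p = 0.504). *WRKY15* (AT2G23320) of the same group measured 33.8, 23.0 and 41.5 CPM in the mutant, against 35.5, 56.8 and 34.5 CPM in the wild type. In group IIe, which includes *WRKY22* of the flagellin response, 6 of 6 were negative with a median of -0.12 and *WRKY22* the most negative at -0.30. Without wild-type replicate 2, 4 of 6 were negative with a median of -0.09, and *WRKY22* was at 0.02. In group IIb the 3 members ranged from -0.18 for *WRKY6*, known from phosphate homeostasis and senescence, to -0.01 for *WRKY42*.

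Genes around the WRKY proteins were read from lists of their upstream signals, partners and outputs. Among salicylic acid response genes, the outputs of group III factors among others, 7 of 8 had values and 6 were tested. *ACD6* and *PR5* fell at an adjusted p under 0.05, where 0.564% of all genes did, and the other 4 did not pass the test. *ACD6*, *BGL2* and *LURP1* stayed under 0.5 CPM in all mutant samples and passed the filter through their wild-type samples alone, so no median is given over the list. *PR1*, the best-known marker of the pathway, stayed under the filter, with 0.321, 0 and 0.201 CPM in the mutant, against 0.0920, 0.0617 and 0.269 CPM in the wild type, and its genotypes overlapped. *ACD6*, which drives a salicylic acid feedback loop and cell death, measured 0.275, 0.115 and 0.151 CPM in the mutant, against 3.22, 3.95 and 2.15 CPM in the wild type (log2 fold change -2.38 ± 0.24 SE, adjusted p = 0.00149). *PR5*, a pathogenesis-related protein, measured 2.25, 1.32 and 1.96 CPM in the mutant, against 6.12, 6.54 and 4.84 CPM in the wild type (log2 fold change -1.44 ± 0.20 SE, adjusted p = 0.0118, and 0.0825 without wild-type replicate 1). *LURP1*, whose induction depends on WRKY70, measured 0.321, 0.230 and 0.101 CPM in the mutant, against 1.10, 1.36 and 0.861 CPM in the wild type (adjusted p = 0.0749). *BGL2*, *NIMIN1* and *NIMIN-2* had log2 fold changes of -1.24, -0.83 and -0.47 that did not pass the test. The 7 genes of this list with values are low in inflorescences, and no mean over the 6 samples exceeded 4.39 CPM.

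The genes for salicylic acid synthesis and perception held no call among 12 tested. Over all genes tested 0.695% were called, so short lists such as this one and those below would mostly hold no call. The receptor genes *NPR1* and *NPR4* had log2 fold changes of -0.47 and -0.38 and *SARD1*, an activator of synthesis, of -1.20, each with an unadjusted p under 0.05. Without wild-type replicate 2 these were -0.26, -0.35 and -0.64, and the median of the 12 genes was -0.20, against -0.41 with it. *SARD1* measured 1.79, 0.575 and 1.61 CPM in the mutant, against 2.02, 8.14 and 2.37 CPM in the wild type, so that wild-type replicate 2 was again the highest. The gene for isochorismate synthase, *EDS16*, had a log2 fold change of -0.24 (adjusted p = 0.653).

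Among the MAP kinases and kinase kinases that act upstream of WRKY proteins, 0 of 8 were called, beside 0.695% of all genes tested. *MPK6* and *MPK4* differed by 0.03 and 0.02 on the log2 scale, *MPK3* by -0.38 with all samples and by 0.00 without wild-type replicate 2, and *MEK1* by -0.53 (adjusted p = 0.240). Of the VQ proteins, which bind WRKY33 and other members, 0 of 8 were called, and *SIB2* had a log2 fold change of -0.45 (adjusted p = 0.484). A list drawn up around camalexin synthesis, an output of WRKY33, held no call in 4 tested. Its genes are not all specific to camalexin, and what their values mean for camalexin was not tested. *CYP79B2*, *CYP79B3* and *CYP71A13* had log2 fold changes of 0.51, 0.69 and 0.62, with adjusted p-values of 0.139, 0.233 and 0.427. In all 3 the mutant samples lay above all wild-type samples, as in 6.92% of all genes tested. *CYP83B1* had a log2 fold change of 0.04 (adjusted p = 0.966). *PAD3*, the last step of camalexin synthesis, stayed under the filter, with 0.275, 0.345 and 0.151 CPM in the mutant, against 0.368, 0.432 and 0.323 CPM in the wild type.

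Senescence genes, which *WRKY53* is known to promote, held no call in 3 tested, with log2 fold changes of -1.62 for *SAG12* and -1.22 for *SEN1*. *SAG12* measured 1.97, 1.73 and 11.8 CPM in the mutant, against 17.1, 6.60 and 15.4 CPM in the wild type, and without mutant replicate 3 its adjusted p was 0.0354. Among the 15 stress and touch genes, *TCH3* had a log2 fold change of -1.34 (adjusted p = 0.439) and *CBF1* of 0.76 (adjusted p = 0.379). Without wild-type replicate 2, *CBF1* passed the test, with a log2 fold change of 1.13 and an adjusted p of 0.00424. *RRTF1* passed it too, at 0.93 with an adjusted p of 0.0260, against 0.43 (adjusted p = 0.794) with all samples. The rest of the 15 did not pass in that fit. Wild-type replicate 2 had been set apart by the sum of these same 15 genes, and it was the highest wild-type sample in *CBF1* and *RRTF1*. Their calls without it follow in part from that choice and are no separate result. Of the floral organ identity genes, *AP1* had an unadjusted p under 0.05, at a log2 fold change of 0.21 (adjusted p = 0.487).

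None of the WRKY genes lies beside a mutated gene. The nearest is *WRKY41*, 521118 bases from *STK* on chromosome 4, and the called *WRKY54* lies on chromosome 2, which holds none of the 4 mutated genes.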

How the data were processed

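Poly(A) RNA of 3 quadruple mutant and 3 wild-type inflorescence samples was sequenced with a directional library kit. A protocol label of the wild-type samples names *ces-2*, while titles and methods give *ces-4*. Per the labels, the submitters' processing notes name Bowtie2, RSEM, edgeR and the TAIR10 genome. The authors deposited a CPM value for every listed gene and sample, on a linear scale and relative to an adjusted library size. Columns with the fold changes and significance of their own comparison were not used. There was no further column of single samples (0).

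The CPM of 1 read was derived for each sample from the spacing of low values. Between 93.8% and 95.1% of them lay within 0.1 read of a whole number, so the values were kept as CPM and no count model was fitted. limma 3.58.1 (R 4.3.3; lmFit and eBayes with a trend) was run on log2(CPM + 0.5) for the 21287 genes that exceeded 0.5 CPM in 3 samples or more, with genotype as the only factor, two-sided and with Benjamini-Hochberg adjustment over all of them and a threshold of 0.05 on the adjusted p for a call. This scale understates fold changes where CPM are low. The procedure was tested on simulated data. No pair of samples held identical values.

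The WRKY genes and the other lists were chosen with earlier results of these data known. Values per sample are given for members with an adjusted or unadjusted p under 0.05, the 5 most positive and 5 most negative fold changes, the 5 highest in wild type per kb, and a set of well-studied members; in the other lists, for called genes and some with an unadjusted p under 0.05, and the choice of the other genes named was made with their values known. Structural groups followed common usage and were the same in 31 of 32 members for which the annotation states one. Gene positions, transcript lengths and promoters came from RefSeq on TAIR10.1, on which all 52 members matched by locus. RSEM divides reads that fit several genes, so paralogs are less certain, and the overlap of *WRKY33*, *WRKY69*, *WRKY40*, *WRKY53*, *WRKY41*, *WRKY4*, *WRKY34*, *WRKY2* and *WRKY1* with genes on the other strand was not resolved. Alternatives were other scalings, filters and pseudocounts, a replicate block, and leaving out each sample. Analyses of tables and figures used Python 3.11.15, numpy 2.4.6, pandas 2.3.3 and matplotlib 3.10.9.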

Additional observations from a re-analysis of the deposited data

How the results depend on the processing

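The single WRKY call was lost, leaving 0 of the members called, with no filter on low values, with a filter at 1 CPM and with a replicate block, and in each fit without 1 sample. The fits without 1 sample called 61 to 159 genes of all those tested, and gave a median log2 fold change of the WRKY genes of -0.19 to -0.04. Upper quartile scaling, scaling to column totals and pseudocounts of 0.1 and 1 CPM kept 1 WRKY call. Among the fits with all samples, 312 of 317 values of the 46 named genes kept their direction and their side of the threshold, and the only reversal was *WRKY1* at -0.0097 with scaling to column totals. Leaving out 1 sample reversed the sign of 8 of the members with values per sample above. Among them were *WRKY33* and *WRKY70*, at -0.68 and -0.36 with all samples. The log2 fold change ranged from -0.0069 to 0.0326 for *WRKY1*, from -0.117 to 0.0905 for *WRKY23* and from -1.03 to 0.0155 for *WRKY33*. It ranged from -0.0913 to 0.326 for *WRKY34*, from -0.577 to 0.673 for *WRKY40* and from -0.0654 to 0.228 for *WRKY44*. For *WRKY46* the range was -0.534 to 0.544, and for *WRKY70* -0.58 to 0.0472. Signs also reversed in other members, such as *WRKY48* (-0.212 to 0.432), *WRKY74* (-0.0982 to 0.323) and *WRKY22* (-0.545 to 0.0224). Each of these fits also had 1 sample fewer, and wild-type replicate 2 was high in some of these genes. The causes of the reversals were not tested.

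The replicate numbers did not pair the samples: the deviations of same-numbered samples from their group means correlated across genes at -0.11, -0.16 and -0.10. The fit with a replicate block called 64 genes in all and 0 WRKY genes, with an adjusted p of 0.156 for *WRKY54* and 0.0633 for *PR5*. The alternative with edgeR on recovered reads was not run, because too few low values were whole reads. Members under about 1 CPM rest on few reads, and *WRKY38*, *WRKY51* and *WRKY75* were tested only without a filter, where none was called.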

Other observations

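A further 20 WRKY genes that are not among the 52 had 10 with values and 8 tested, and none was called. Of the 8, 7 had a negative log2 fold change, where 47.9% of all genes tested did, with *WRKY68* at -5.62e-05 among the 7. The median of the 8 was -0.07. *WRKY58* had the lowest unadjusted p of them (0.007) and measured 0.367, 0.403 and 0.403 CPM in the mutant, against 0.920, 1.6 and 0.807 CPM in the wild type, with no overlap. It passed the filter through its wild-type samples alone, with a log2 fold change of -0.82 and an adjusted p of 0.248. The genes for *WRKY19*, *RRS1* and *TTR1*, which join a WRKY domain to a resistance receptor, had log2 fold changes of 0.07, -0.05 and -0.09, and *RRS1* measured 21.2, 22.0 and 25.0 CPM in the mutant, against 25.0, 22.7 and 23.1 CPM in the wild type. Summed over these genes, the level was 83.7, 84.2 and 87.2 CPM in the mutant and 91.7, 87.9 and 89.1 CPM in the wild type, and wild-type replicate 2 was more than 2-fold above both other wild-type samples in 0 of the 8.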
